A study of Homo sapiens with 8 samples.

Results

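Promoters that carried an H3K4me2 peak in PC9R cells and none in PC9 cells were collected for every protein-coding gene of the human genome build hg19 (GRCh37). A peak counted where it lay within 1000 bp of the transcription start site (TSS) of the gene record in PC9R, with no PC9 peak within 1000 bp of the same TSS. The rule gave 933 of the 117861 PC9R peaks, at 835 of 20163 coding genes (4.14%). The genes were thus chosen by the H3K4me2 peaks themselves, and their peak values below are a description with no test.

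PC9 is a human lung adenocarcinoma line with an activating EGFR mutation that makes it sensitive to gefitinib, an inhibitor of the EGFR kinase. PC9R was obtained from PC9 by gefitinib treatment over 1 to 2 weeks, both lines were used at passages 8 to 12, and the labels do not say whether PC9R is 1 clone. PC9R had 2 RNA-seq libraries, 1 library of DNase hypersensitive sites (DHS) and 1 of H3K4me2 ChIP-seq, and PC9 had the same 4. Only PC9R was exposed to gefitinib, so the drug and the line cannot be told apart.

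H3K4me2, dimethylation of lysine on the tail of histone H3, is written by the KMT2 and SETD1 methyltransferase complexes and removed by demethylases such as KDM1A. It marks active and poised promoters and enhancers. Active promoters usually also lie in open chromatin, which DNase cuts as a DHS. Most broadly expressed human genes start in CpG islands, and many tissue-restricted genes start in promoters poor in CpG.

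The PC9R RNA libraries held 32502455 and 16715426 counts, and the PC9 libraries 32515891 and 16013058. In both lines the first was the deeper, and first and second libraries are taken here as separate batches, although no label calls them that. The PC9R H3K4me2 list held 117861 peaks over 60.3 Mb and the PC9 list 85246 over 71.4 Mb. These H3K4me2 lists were not reduced to equal numbers of peaks, and the threshold for a peak is not stated. Whether low-scored PC9R-only peaks had signal in PC9 below that threshold was not tested. The PC9R DHS list held 59600 peaks and the PC9 list 19648, so a promoter could meet a DHS peak more easily in PC9R. The epithelial keratin and adhesion genes that fit a lung carcinoma line were abundant in all 4 RNA libraries (KRT7, KRT19 and EPCAM, at 471 CPM or more each). The lung lineage markers NKX2-1, SFTPB and SFTPC had at most 9 counts in a library, and NAPSA, another such marker, had 71 and 12 counts in PC9R and 29 and 6 in PC9. MUC1, an epithelial mucin gene counted over 20 accessions, had 0. NKX2-1 and SFTPB were counted over 2 accessions and SFTPC over 3, and a low count over several accessions does not show low expression here.

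The starts of the genes on which the results turn are shown first, as the 250 bases before the TSS on the strand of the gene (GRCh37), with each CpG in capitals. GUCY1B1 (chr4:156679894-156680143, plus strand), MAP9 (chr4:156298123-156298372, minus strand) and TDO2 (chr4:156775640-156775889, plus strand) are neighbours on chromosome 4. ZNF287 (chr17:16472519-16472768, minus strand) and ZNF253 (chr19:19976441-19976690, plus strand) encode zinc finger proteins, and CSTA (chr3:122043845-122044094, plus strand) encodes an epidermal protein. They are printed because their RNA was almost absent in PC9 and called higher in PC9R.
GUCY1B1: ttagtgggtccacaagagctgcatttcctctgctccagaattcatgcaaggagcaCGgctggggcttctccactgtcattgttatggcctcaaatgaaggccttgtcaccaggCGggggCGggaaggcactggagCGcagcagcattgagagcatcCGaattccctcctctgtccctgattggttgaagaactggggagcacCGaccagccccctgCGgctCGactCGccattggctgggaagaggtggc
MAP9: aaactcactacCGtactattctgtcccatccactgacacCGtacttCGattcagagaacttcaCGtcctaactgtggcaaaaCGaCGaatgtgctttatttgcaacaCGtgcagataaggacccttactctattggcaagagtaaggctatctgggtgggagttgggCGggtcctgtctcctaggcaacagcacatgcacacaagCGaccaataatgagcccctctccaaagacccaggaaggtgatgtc
TDO2: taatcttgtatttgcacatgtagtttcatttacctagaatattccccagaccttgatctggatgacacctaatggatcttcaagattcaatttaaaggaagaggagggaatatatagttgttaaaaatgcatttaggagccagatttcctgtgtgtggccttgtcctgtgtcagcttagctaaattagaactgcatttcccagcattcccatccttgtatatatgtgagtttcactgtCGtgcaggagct
ZNF287: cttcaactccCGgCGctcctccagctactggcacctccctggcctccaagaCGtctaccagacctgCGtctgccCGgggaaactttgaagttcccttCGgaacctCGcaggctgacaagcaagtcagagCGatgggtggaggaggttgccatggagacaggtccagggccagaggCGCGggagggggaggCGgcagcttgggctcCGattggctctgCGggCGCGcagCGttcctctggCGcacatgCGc
ZNF253: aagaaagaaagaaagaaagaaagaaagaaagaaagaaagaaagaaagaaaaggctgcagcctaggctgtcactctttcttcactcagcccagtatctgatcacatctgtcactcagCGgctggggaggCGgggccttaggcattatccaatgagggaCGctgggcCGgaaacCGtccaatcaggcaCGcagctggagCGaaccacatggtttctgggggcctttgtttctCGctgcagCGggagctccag
CSTA: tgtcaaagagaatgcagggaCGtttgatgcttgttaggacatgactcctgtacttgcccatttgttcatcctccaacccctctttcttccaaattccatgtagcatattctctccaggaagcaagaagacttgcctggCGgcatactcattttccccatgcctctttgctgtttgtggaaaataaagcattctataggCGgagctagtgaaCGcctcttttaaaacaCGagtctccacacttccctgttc
The printed stretch held 18 CpG in ZNF287, 9 each in GUCY1B1, MAP9 and ZNF253, 5 in CSTA and 1 in TDO2, so the 6 genes ranged from CpG-rich to CpG-poor starts. The PC9R peaks covered each of these stretches whole, except in ZNF253, whose peak began inside it.

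The PC9R-only promoter peaks were mostly small. The highest-scored peak of a gene had a median width of 372 bp, against 928 bp at the 12746 genes with promoter H3K4me2 in both lines. Its median score, the authors' own value on an unstated scale, was 10.8, against 50.4 at those genes and 12.2 over the whole PC9R list. Of the 835 genes, 51 (6.11%) had a peak in the top 10% of the list, against 56.5% of the genes marked in both lines. In 326 genes the TSS lay inside the peak, and the median distance from TSS to peak was 73 bp.

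The highest score, 99.7, was at GUCY1B1. ACSS3, which encodes a mitochondrial acyl-CoA synthetase, and LIN7A, which encodes a cell-junction scaffold protein, shared 1 peak of score 93.0. GBX1, a homeobox gene, had 87.3, the zinc finger gene ZNF814 85.1 and ZNF287 82.3. The widest peaks lay at ZNF44 (1796 bp) and the mucin gene MUC2 (1721 bp). A high score or a wide peak did not go with much RNA in every case. LIN7A had 1 count over the 4 libraries, MUC2 had 0 counts in PC9R and 5 in PC9, GBX1 had 4 in PC9R and 0 in PC9, and ZNF44 had 6 in PC9R and 0 in PC9 (ZNF44 over 2 RefSeq accessions).

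Absence of a PC9 peak depended on the 1000 bp limit in some genes. The nearest PC9 H3K4me2 peak lay between 1 and 2 kb from the TSS in 62 genes, between 2 and 5 kb in 75, between 5 and 10 kb in 158, between 10 and 100 kb in 422 and beyond 100 kb in 118, with a median of 16428 bp. SDK2, MYO1F and COLEC12 had a PC9 peak 1017, 1034 and 1038 bp away, just beyond the limit. APOBEC3A, AGT and LNX1 had one at 996, 995 and 992 bp and so did not qualify. On the PC9R side, GSTA5, GBX1 and VSNL1 qualified with peaks 993, 992 and 991 bp from the TSS, while NEFL, UGT1A3 and EHBP1 missed it at 1001, 1008 and 1009 bp. The TSS of all coding transcripts of a gene were also checked. Of the 835 genes 700 had a PC9R peak at a coding transcript TSS and no PC9 peak at any. The other 135 had a PC9 peak at the TSS of another coding transcript, or no PC9R peak at any coding transcript TSS. These 2 cases were not separated. Among the 135 were MSN, BPIFB1, LRAT, RIMKLB, KIF26A and TMEM86A.

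Most of these promoters gave little RNA in either line. Of the 835 genes 773 had a row in the count table. Of these, 250 (32.3%) had 0 counts in all 4 libraries, against 21.6% of all coding genes with a row. A further 151 had counts in PC9R only, 40 had counts in PC9 only and 332 had counts in both lines. The matching shares over all coding genes were not taken, so this split is not shown to be particular to the PC9R-only genes. Genes with more than 1 RefSeq accession (294 of the 773) hold few counts in these files, so a low value of such a gene is not a low expression. The sources used here give no strand or multiple-mapping rule for the counting, so reads of overlapping, antisense or near-identical genes may not be separated.

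Both PC9R libraries lay above both PC9 libraries in 165 of the 773 genes (21.3%), against 12.8% of all coding genes with a count row. Both lay below in 46 (5.95%), against 11.1%. By class of the mark, the share above was 14.6% in both lines, 12.7% in PC9 only and 7.74% in neither. The share below was 13.4%, 16.3% and 6.60% in the same order. A low share below was thus also seen at genes with the mark in neither line, of which 52.7% had 0 counts in all libraries. Levels are given in CPM, counts per library total scaled with edgeR's TMM factors. All other genes overlapped between the lines or were 0 throughout. In bulk RNA, a change in the share of cells that express a gene and a change in the level per cell cannot be told apart.

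Differential expression was tested over all rows with edgeR's quasi-likelihood test, and a gene is called at a Benjamini-Hochberg adjusted p under 0.05. Of the 183 PC9R-only genes that passed the filter on low counts, 8 were called higher in PC9R, where the background over all 12660 tested rows was 0.19%, and 1 was called lower, where the background was 0.0632%. With a term for the batch, 63 were called higher and 11 lower, against a background of 11.2% higher and 9.57% lower. With upper quartile scaling and no batch term 0 genes were called in either direction, with 49 higher and 5 lower at an unadjusted p under 0.05 and a smallest adjusted p over all rows of 0.0536. The fit with the batch term has 1 residual degree of freedom, and its p-values depend mostly on the spread pooled over genes. The labels do not state that the 2 libraries of a line are separate cultures. The p-values therefore reflect the spread among libraries, which may be technical.

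The filter bears on these counts. Of the 183 tested genes 57 reached its level in PC9R only. With the batch term 47 of these 57 were called higher, against 303 of the 689 coding genes that reached it in PC9R only. Another 106 of the 183 reached it in both lines. Of these 16 (15.1%) were called higher and 7 (6.604%) lower, against 9.85% and 10.2% of the 9748 coding genes that reached it in both lines. The median log2 fold change, PC9R over PC9, of the 183 was 0.60, against -0.02 over all tested coding genes. It was 0.71 within the first libraries and 0.43 within the second. Of the 700 genes with a PC9R peak and no PC9 peak at their coding transcript TSS 110 were tested. With the batch term 51 were called higher and 3 lower, with a median of 1.13. Of the other 135 genes 73 were tested, with 12 called higher and 8 lower and a median of 0.05.

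**Figure D1:**
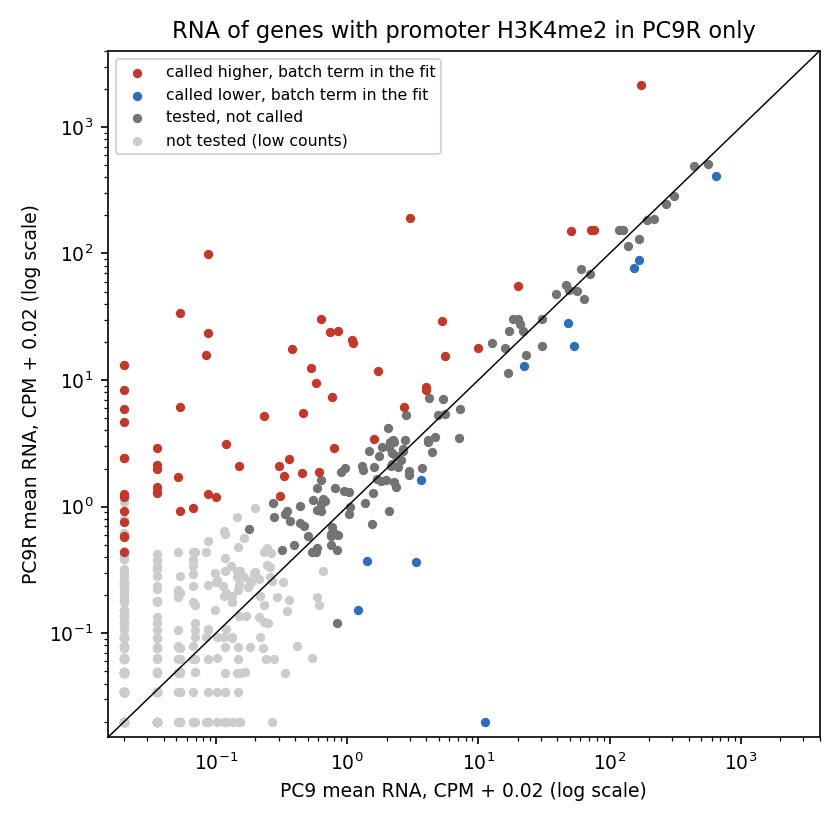
Mean RNA level in PC9R (vertical axis) against PC9 (horizontal axis), in CPM plus 0.02 on log scales, for the 773 genes with promoter H3K4me2 in PC9R only and a count row. Each point is 1 gene, the diagonal marks equal levels, red points are the 63 called higher and blue points the 11 called lower with a batch term. Most red points lie left of 1 CPM in PC9, and GABRA3 is the blue point on the lower edge, with 0 counts in PC9R.

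MAP9, GUCY1B1 and TDO2 were almost silent in PC9 and expressed in PC9R, and they follow each other on chromosome 4. MAP9 encodes a microtubule-associated protein that takes part in spindle formation. It had 71.2 and 126 CPM in the PC9R libraries, against 0 and 0.133 CPM in the PC9 libraries. With 4621 counts in PC9R and 2 in PC9, the ratio of depth-scaled counts was 2085 (95% counting interval 577 to 17223), and edgeR's adjusted p was 0.0359 (4.01e-05 with the batch term). GUCY1B1 encodes a subunit, named beta, of the nitric oxide receptor soluble guanylate cyclase, which makes cyclic GMP. It had 23.6 and 44.3 CPM in PC9R, against 0 and 0.067 CPM in PC9, a ratio of 1421 (255 to 56176; edgeR adjusted p = 0.0359). TDO2 encodes tryptophan dioxygenase, the enzyme that opens the kynurenine pathway of tryptophan breakdown. It had 6.35 and 10.2 CPM in PC9R and 0 counts in both PC9 libraries, and was at least 119-fold higher in PC9R (floor of 3 counts over the group, edgeR adjusted p = 0.0388).

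The same stretch holds GUCY1A1, the gene of the alpha subunit that pairs with GUCY1B1. MAP9, GUCY1A1, GUCY1B1 and TDO2 are 4 consecutive coding genes with PC9R-only promoter H3K4me2, over 477768 bp between the outer TSS at 156298122 and 156775890. GUCY1A1, counted over 7 accessions, had 10 and 4 counts in the PC9R libraries and 0 in both PC9 libraries, too few to test. The nearest PC9 H3K4me2 peak lay 98501 bp from the TSS of TDO2, 194247 bp from GUCY1B1, 286513 bp from GUCY1A1 and 576269 bp from MAP9. MAP9, GUCY1A1 and GUCY1B1 had a DHS peak at the TSS in PC9R only, and TDO2 had none in either line. Next to them, ASIC5 had no promoter H3K4me2 in either line and 4 counts in all. CTSO, a cathepsin gene with promoter H3K4me2 in both lines, was called higher as well, with 962 and 267 counts in PC9R and 3 and 4 in PC9 (edgeR adjusted p = 0.0362). CTSO also had a DHS peak at the TSS in PC9R only. So did PLRG1, with the mark in both lines, and RBM46 and NPY2R, with it in neither. ASIC5, FGA and FGB, with the mark in neither line, had no such peak. PC9R-only DHS in this region was thus not particular to the genes with the PC9R-only mark. At a lower coordinate, LRAT, which encodes the enzyme that esterifies retinol, had 4.64 and 43.5 CPM in PC9R, against 0.0941 and 1.34 CPM in PC9. Its libraries spread widely, and it was called in edgeR with the batch term (35.6-fold, edgeR adjusted p = 0.00011) and not without it (0.255). Without the term it was called by DESeq2 (adjusted p = 0.000161) and by edgeR with no filter on low counts, without the first PC9R library or without the second PC9 library (adjusted p = 2.21e-06, 2.21e-05 and 0.0014). Neighbouring genes may not be independent observations.

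PTN, ZNF253, ZNF287 and CSTA made up the rest of the genes close to 0 in PC9 and called higher. PTN encodes pleiotrophin, a secreted heparin-binding growth factor. It had 4.30 and 4.93 CPM in PC9R and 0 counts in PC9, at least 70.4-fold higher (edgeR adjusted p = 0.0425). ZNF253, a Krüppel-associated box zinc finger gene on chromosome 19, had 4.24 and 7.49 CPM in PC9R and 0 counts in PC9, at least 82.7-fold higher (edgeR adjusted p = 0.0425). ZNF287, a zinc finger gene on chromosome 17, had 12.9 and 18.4 CPM in PC9R, against 0.0627 and 0.0667 CPM from 3 counts in PC9, a ratio of 229.5 (78.2 to 1115). CSTA encodes cystatin A, a cysteine protease inhibitor of the cornified envelope, and had 13.6 and 21.6 CPM in PC9R, against 0.314 and 0.400 CPM in PC9 (log2 fold change 5.62 with an SE of 0.77, edgeR adjusted p = 0.0388). In all 4 genes the lines were far apart beside the spread between the libraries of a line.

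MSN differed in kind, since PC9 expressed it too. It encodes moesin, which links actin filaments to the plasma membrane. MSN had 2019 and 2257 CPM in PC9R, against 150 and 196 CPM in PC9 (log2 fold change 3.63, SE 0.51, edgeR adjusted p = 0.0411), so it was well expressed in PC9 and higher still in PC9R. Without the first PC9 library it was not called (edgeR adjusted p = 0.0801). The PC9R-only peak was at the TSS of the gene record (chrX:64807814-64809054). MSN was among the genes with a PC9 peak at another coding TSS or no PC9R peak at any coding transcript TSS.

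GABRA3, the gene of the alpha-3 subunit of the GABA-A receptor, had RNA in PC9 and none counted in PC9R, although its promoter mark was found in PC9R. It had 0 counts in both PC9R libraries, against 10.1 and 12.3 CPM in the PC9 libraries, at least 187-fold lower in PC9R (edgeR adjusted p = 0.0362). Its PC9R peak was 212 bp wide with a score of 12.5, close to the median of the list, and no DHS peak lay at the TSS in either line.

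**Figure D2:**
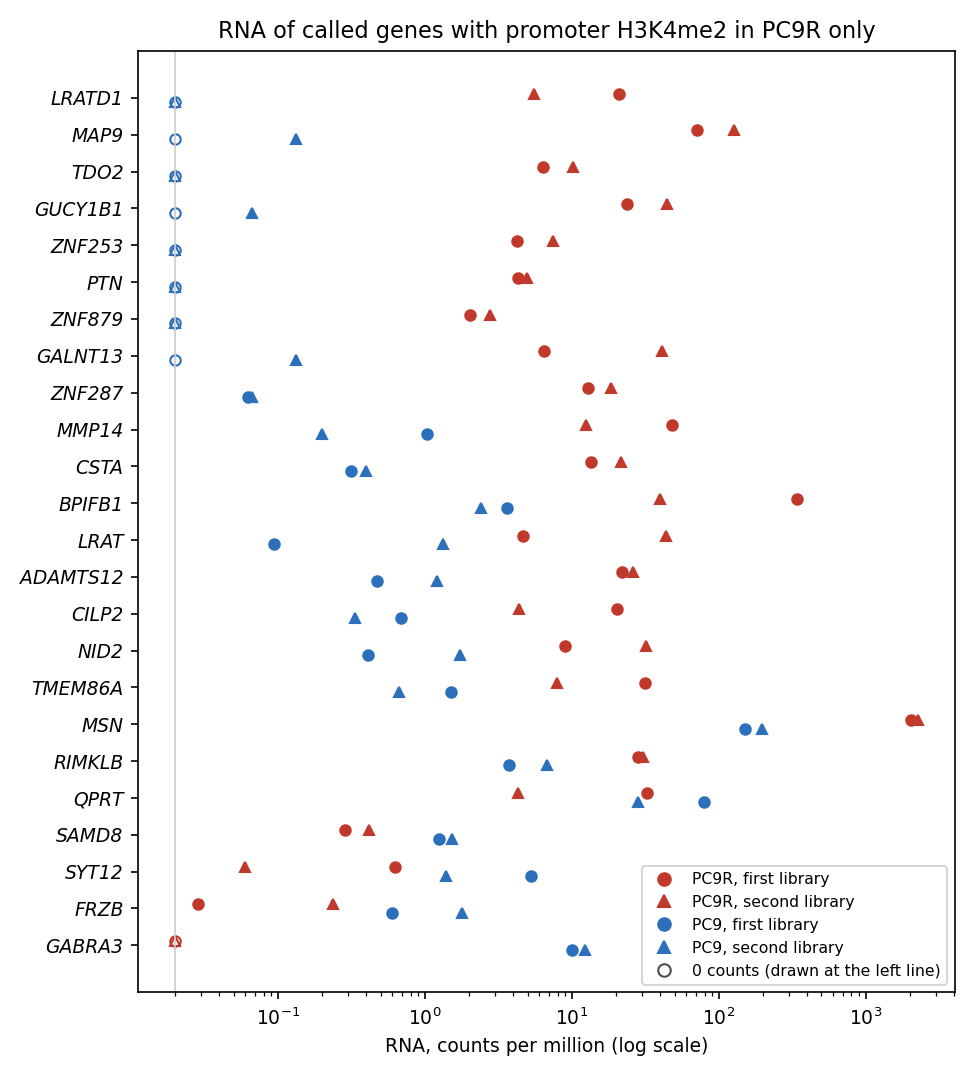
RNA level of 24 genes with promoter H3K4me2 in PC9R only, in CPM on a log scale. Circles are first and triangles second libraries, red is PC9R and blue PC9, and open symbols at the left line are 0 counts. Shown are genes called without a batch term, those called with it that had the largest folds at a mean of at least 10 CPM in PC9R (higher) or 1 CPM in PC9 (lower), and called genes with 0 counts in PC9 and the most RNA in PC9R, where the fold was 3 or more. They are ordered by fold change from the highest (LRATD1) to the lowest (GABRA3). In the genes down to RIMKLB every red symbol lies to the right of every blue one, and from QPRT on every red symbol lies to the left of the blue one of the same shape.

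Further genes were called higher in edgeR with the batch term and not without it. MMP14, a membrane-anchored collagenase, had 47.9 and 12.5 CPM in PC9R, against 1.03 and 0.200 CPM in PC9, and rose 48.9-fold with the batch term (edgeR adjusted p = 7.06e-05, 0.0886 without it). ADAMTS12, a secreted metalloprotease, had 22.1 and 26.3 CPM in PC9R, against 0.470 and 1.20 CPM in PC9 (31.9-fold, edgeR adjusted p = 0.000159, 0.0585 without the term). NID2, the basement membrane protein nidogen-2, had 9.06 and 32.1 CPM in PC9R, against 0.408 and 1.73 CPM in PC9 (19.9-fold). DESeq2 called MMP14, ADAMTS12 and NID2 without the term (adjusted p = 4.04e-08, 4.04e-09 and 6.49e-05). In each of these genes both PC9R libraries lay above both PC9 libraries, and the libraries of a line differed by several fold in MMP14 and NID2.

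BPIFB1, a secreted protein of the airway lining, had 340.8 and 39.7 CPM in PC9R, against 3.64 and 2.40 CPM in PC9 (45.6-fold with the batch term, edgeR adjusted p = 0.000629, 0.0792 without it). GALNT13, an enzyme that starts mucin-type O-glycans, had 6.44 and 41.0 CPM in PC9R and 2 counts in all in PC9, a ratio of 413 (114 to 3414). LRATD1 had 20.9 and 5.53 CPM in PC9R and 0 counts in PC9, at least 249-fold higher (edgeR adjusted p = 0.000163 with the term, 0.0509 without it). CILP2, a cartilage matrix protein, rose 23.4-fold, TMEM86A, a lysoplasmalogenase, 17.2-fold and RIMKLB, a ligase that makes N-acetylaspartylglutamate, 5.81-fold with the batch term. ZNF879, with 71 and 47 counts in PC9R and 0 in PC9, was at least 35.5-fold higher although its PC9R peak had the lowest score of all 835 genes, 2.73.

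The genes called lower with the batch term fell less far. SYT12, a synaptotagmin gene, had 0.627 and 0.0594 CPM in PC9R, against 5.30 and 1.40 CPM in PC9 (9.79-fold lower, edgeR adjusted p = 0.0023). FRZB, a secreted inhibitor of Wnt ligands, had 0.0285 and 0.238 CPM in PC9R, against 0.596 and 1.80 CPM in PC9 (10.003-fold lower, edgeR adjusted p = 0.0101). QPRT, the enzyme that feeds quinolinate into NAD synthesis, had 32.7 and 4.28 CPM in PC9R, against 78.8 and 28.0 CPM in PC9 (3.78-fold lower), so the lines overlapped across batches. SAMD8, counted over 2 accessions, fell 4.03-fold. SELENOI, SRRM1, ADGRL2, OPLAH and ZC3H12B, chosen after their values were seen, fell between 1.58-fold and 1.93-fold.

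Some well-expressed genes were called in neither fit. GALNT2, an O-glycan enzyme, had 541 and 485 CPM in PC9R, against 617 and 514 CPM in PC9 (log2 fold change -0.14, SE 0.48). PRSS23, SUB1 and VBP1 had log2 fold changes of 0.16, -0.11 and -0.12, with SE of 0.58, 0.72 and 0.75. These were the tested genes with the highest mean CPM called in neither fit (edgeR adjusted p = 0.999 each). All 4 had a PC9 peak at another coding TSS or no PC9R peak at any coding transcript TSS.

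By gene group, zinc finger genes were the most numerous, with 32 of the 608 in the genome and 16 tested. With edgeR and no batch term 2 were called higher (ZNF253 and ZNF287), and with the term 11 were higher. None was called lower by edgeR, DESeq2 or limma-voom, with 0 at an unadjusted p under 0.05, and DESeq2 called 7 higher. The median log2 fold change of the 16 was 2.66, and the filter rule above bears on it. Of the other 381 tested zinc finger genes 64 were higher and 21 lower with the term. On chromosome 19, 19 of 264 zinc finger genes had the PC9R-only mark. Of these 11 were tested, and ZNF253, ZNF714, ZNF708, ZNF91, ZNF347, ZNF677, ZNF582 and ZNF329 were called higher with the batch term, beside 35 higher and 3 lower among the other 153 tested there. ZNF677 had 95 and 51 counts in PC9R, against 1 and 0 in PC9, a ratio of 132 (23.3 to 5239). ZNF91 had 145 and 104 counts in PC9R, against 5 and 4 in PC9, and rose 24.2-fold. ZNF329 had 527 and 353 counts in PC9R, against 221 and 193 in PC9, and rose 1.88-fold. ZNF814, with 19.45 and 19.4 CPM in PC9R and 9.0 and 16.4 CPM in PC9, and ZBTB45, with 82.0 and 30.4 CPM in PC9R and 71.0 and 22.9 CPM in PC9, were called in neither fit. Zinc finger genes are a repetitive family, and reads may be shared between relatives.

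Cadherin and protocadherin genes had the largest share of a group, 18 of 94 (19.1%), against 4.14% of all coding genes. The clustered protocadherins encode neuronal adhesion proteins, and PCDHB16, PCDHB9, PCDHB10, PCDHB11 and PCDHB12 followed each other over 26307 bp on chromosome 5, with a separate PC9R peak each. PCDHB9 had 62 and 18 counts in PC9R, against 1 and 0 in PC9, a ratio of 72.2 (12.6 to 2887), and rose in the fit with the batch term (edgeR adjusted p = 0.0021). PCDHB10 had 15 and 7 counts in PC9R and 0 in PC9 and also rose. PCDHB16 had 29 and 5 counts in PC9R and 0 in PC9 and was not tested. Only 3 of the 18 genes were tested in all, and 2 of them were higher with the batch term. Of the other 14 tested genes of the family 9 were higher and 1 lower with the term, so a rise was not particular to the PC9R-only promoters. Reads may be shared between members of the cluster.

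Keratin and cornified envelope genes had 11 members of 243, of which 5 were tested. CSTA was called higher without the batch term, and KRT6B and SPRR1B with it. Among the other 54 tested genes of the group 8 were higher and 4 lower with the term. KRT6B, a keratin of stressed epidermis, had 20.8 and 90.4 CPM in PC9R, against 8.53 and 31.2 CPM in PC9, so the lines overlapped across batches (2.66-fold with the term, edgeR adjusted p = 0.00408). SPRR1B, which encodes a cornified envelope precursor, had 1.42 and 16.1 CPM in PC9R, against 0.408 and 7.47 CPM in PC9, and without the second PC9R library its log2 fold change was -1.47. Squamous markers as a whole, 9 genes of which 3 are among these promoters, summed to 59.1 and 134 CPM in PC9R, against 5.93 and 45.1 CPM in PC9. IVL gave 38.6 CPM of the first PC9R sum. KRT6A gave 71.3 CPM of the second and 2.16 CPM of the first. The sums therefore do not show that the list rose as a whole. With the term KRT6A, IVL, CSTA and SPRR1B were higher and KRT14 lower, while TP63 and DSG3 had 0 counts in every library. Without the term IVL was called higher too, beside CSTA (edgeR adjusted p = 0.0359 for IVL). TP63 was counted over 6 accessions, so its 0 does not show absent expression. The part of a squamous cell state in these values was not tested.

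Developmental regulators gave few tested genes. TWIST1, a basic helix-loop-helix factor of mesenchyme, had 45 and 20 counts in PC9R and 0 in PC9, at least 19.6-fold higher (edgeR adjusted p = 0.0036 with the batch term, 0.0823 without it). HOXA13, a limb and hindgut homeobox gene, had 35 and 26 counts in PC9R, against 1 and 0 in PC9, a ratio of 55.0 (9.52 to 2210), and BMP7, a bone morphogenetic protein gene, had 84 and 26 counts in PC9R, against 1 and 0 in PC9, a ratio of 99.3 (17.5 to 3956). TBX10, with 3 counts in PC9R and 4 in PC9, was not tested. Of the other growth factor and receptor genes with the mark, BMPER had 20 counts in PC9R and 0 in PC9 in spite of a peak score of 81.9, and FGF17 had 26 in PC9R and 1 in PC9.

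Among membrane transport and signalling genes, the rule took 9.30% of 215 ion channel genes, 5.18% of 386 solute carrier genes and 8.14% of 221 genes of cyclic nucleotide and G protein signalling. Of those taken 10, 11 and 8 were counted over more than 1 accession, so their low counts do not show low expression. Of 20 ion channel genes 10 had 0 counts in all libraries and 4 were tested. KCND1, a voltage-gated potassium channel gene, rose 3.68-fold with the batch term, with 4.67 and 1.13 CPM in PC9R and 1.22 and 0.334 CPM in PC9, and CACNA2D3 had 24 and 19 counts in PC9R, against 0 and 1 in PC9. Of 20 solute carrier genes 4 were tested and 0 were called, with 0 at an unadjusted p under 0.05 in edgeR, DESeq2 and limma-voom, among them SLC23A2, a vitamin C transporter gene, with 3.67 and 2.79 CPM in PC9R and 2.10 and 2.07 CPM in PC9. Cyclic nucleotide and G protein signalling had 18 genes, with GUCY1B1 higher and ADGRL2 lower. PDE7B, which encodes a cyclic AMP phosphodiesterase, had 52 counts in PC9R and 0 in PC9 and was not tested. Of 15 cytokine, antigen presentation and interferon genes IFI16, a DNA sensor, was called higher with the batch term, with 20 and 9 counts in PC9R and 0 in PC9. In the same group, IL17RB, IL1R2 and TNFRSF25 were called in neither fit. Of 7 cytoskeletal genes MAP9, KIF26A, a kinesin-family gene, and MYO1F, an unconventional myosin gene, were called higher with the term. MYO1F had 22.1 and 1.37 CPM in PC9R, against 2.54 and 0.868 CPM in PC9, and without the first PC9R library its log2 fold change was -0.34. KIF26A had 12.3 and 6.66 CPM in PC9R, against 0.721 and 0.400 CPM in PC9. Of 13 metabolic enzyme genes ACSS3 rose with the term, with 18 and 16 counts in PC9R and 0 in PC9. Of the tested genes without the PC9R-only mark, 17 of 55 ion channel and 27 of 206 solute carrier genes were higher with the term. So were 12 of 73 in cyclic nucleotide and G protein signalling and 29 of 96 in the cytokine group. So were 10 of 80 cytoskeletal and 19 of 80 metabolic enzyme genes. Lower were 3, 17, 7, 9, 10 and 6, in the same order of groups. Olfactory receptor genes had 9 of 415 and cancer-testis genes 0 of 85.

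Open chromatin followed the mark at a minority of these promoters. A DHS peak lay within 1000 bp of the TSS in PC9R only at 187 of the 835 genes (22.4%, exact 95% binomial interval 19.6 to 25.4), in both lines at 19, in PC9 only at 10 and in neither line at 619 (74.1%). Over all coding genes the shares were 16.4% in PC9R only, 23.0% in both, 6.86% in PC9 only and 53.7% in neither. In all, 24.7% of the PC9R-only H3K4me2 genes had a promoter DHS peak in PC9R and 3.47% had one in PC9. At the 12746 genes with the mark in both lines these shares were 54.8% in PC9R and 46.4% in PC9. With 1 library per line none of these differences has a replicate check.

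The lists differ in length, so the PC9R DHS list was also reduced to its highest-scored peaks, as many as PC9 has. Then 9.22% of the PC9R-only H3K4me2 genes had a promoter DHS peak in PC9R, against 3.47% in PC9. Over all coding genes the order was the reverse, with 20.3% in PC9R against 29.9% in PC9. It was also the reverse at genes with the mark in both lines, with 29.7% in PC9R and 46.4% in PC9. Genes with the mark in neither line had the same order as the PC9R-only genes, with 3.43% in PC9R and 1.01% in PC9.

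**Figure D3:**
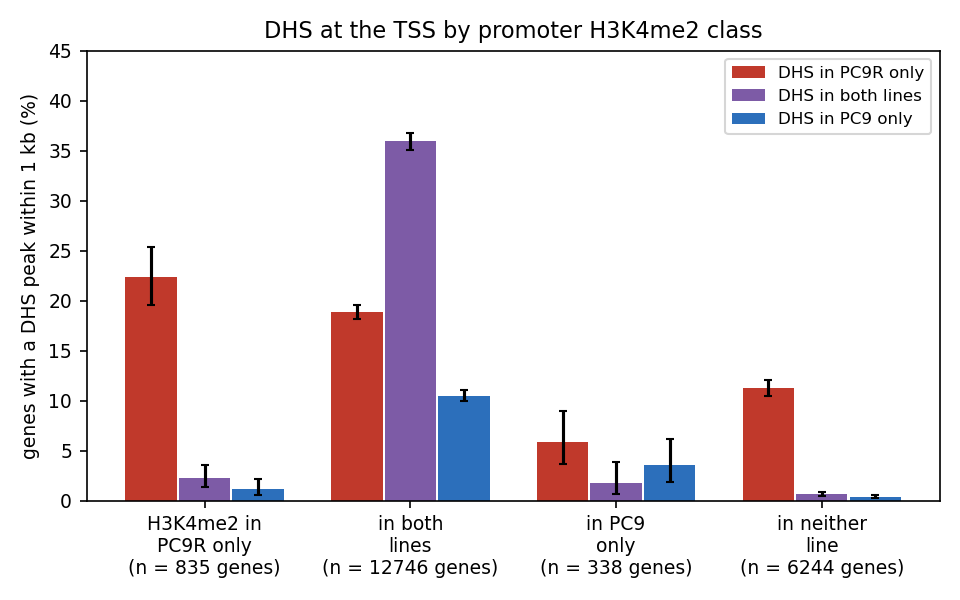
Share of coding genes with a DHS peak within 1000 bp of the TSS in PC9R only (red), in both lines (purple) or in PC9 only (blue), for 4 classes of promoter H3K4me2. Bars are percentages of the genes in a class and error bars are exact 95% binomial intervals, which cover counting error only. The 835 genes with H3K4me2 in PC9R only have DHS in PC9R only at 22.4%, and in both lines at 2.28%, where the genes marked in both lines have 35.9%.

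Several of the strongest PC9R-only DHS peaks lay at promoters of genes with few or no counts, which is usual in this set. Of all genes with a PC9R-only DHS peak and a count row, 34.1% had 0 counts in all libraries, against 32.3% of all PC9R-only H3K4me2 genes. The median of the mean level in PC9R was 0.03 CPM in both. Among the highest-scored were those at CLEC9A, LRCH2, PRB2, ANKRD7 and IGSF11. CLEC9A, PRB2 and LRCH2 had 0 counts in all 4 libraries, and ANKRD7 had 1 in PC9R and 0 in PC9. IGSF11 had 6 counts in PC9R and 2 in PC9. LRCH2 and IGSF11 were counted over 2 accessions each. GUCY1B1, MAP9, ZNF253, ZNF287, CSTA and MSN, 6 of the 8 genes called higher without a batch term, had DHS at the TSS in PC9R alone. TDO2 and PTN had none in either line, with the nearest PC9R DHS peak 95245 and 26798 bp away.

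Of the 187 genes with a PC9R-only DHS peak 39 were tested, with 21 called higher and 1 lower with the batch term and a median log2 fold change of 1.10. Of the 619 with no DHS peak 139 were tested, with 41 higher and 8 lower and a median of 0.51. Of the 19 with a DHS peak in both lines 4 were tested, with 2 lower with the batch term and 0 called without it (1 lower at an unadjusted p under 0.05 in edgeR, 0 called by DESeq2 or limma-voom). Both PC9R libraries lay above both PC9 libraries in 25.1% of the PC9R-only DHS genes with a count row and in 20.7% of those with no DHS peak. Whether these groups differ was not tested, and the first count rests on few tested genes. Over all tested coding genes 11.4% were called higher and 9.81% lower with the batch term, with a median of -0.02. The filter on low counts bears on the calls by DHS class too. Tested genes that reached its level in PC9R only were called higher with the term or not at all.

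The genes with the highest-scored peaks most often had a DHS peak in PC9R only and RNA above PC9 in both PC9R libraries. The 835 genes were ordered by score and divided into 4 groups of 208 or 209. A DHS peak in PC9R only lay at 19.6%, 13.4%, 16.3% and 40.2% of the groups from low to high score. Both PC9R libraries lay above both PC9 libraries in 16.5%, 15.3%, 20.3% and 33.0% of genes with a count row. Over all coding genes these shares were 16.4% and 12.8%. The group with scores from 20.0 to 99.7 stood apart from the other three on both measures. Of the 8 genes called higher without a batch term 7 were in it, and CSTA, at a score of 19.2, was in the next.

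**Figure D4:**
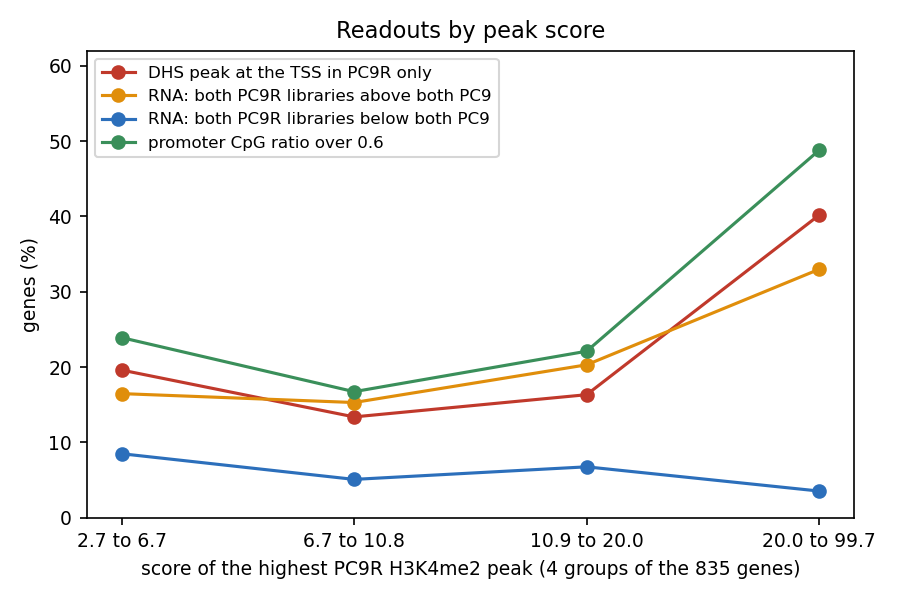
Share of genes (vertical axis, percent) in 4 groups of PC9R-only promoter H3K4me2 genes ordered by the score of their highest peak (horizontal axis, score range). Red is a DHS peak at the TSS in PC9R only, orange both PC9R RNA libraries above both PC9 libraries, blue both below, and green a CpG ratio over 0.6. Red, orange and green points are highest in the highest-scored group (40.2%, 33.0% and 48.8%) and the blue point is lowest there.

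The promoter sequences of these genes were mostly poor in CpG. The CpG ratio, the observed over the expected number of CpG in the 300 bases from 250 before to 50 after the TSS, had a median of 0.31. It was 0.81 at genes with the mark in both lines, 0.35 at the 338 genes with it in PC9 only, 0.29 at genes with it in neither line and 0.69 over all coding genes. A ratio over 0.6 was found in 233 of the 835 genes (27.9%), against 78.0% of genes marked in both lines and 57.9% of all coding genes. The share was 23.9%, 16.7%, 22.1% and 48.8% in the groups from low to high peak score. It was 46.0% in genes with a PC9R-only DHS peak and 22.1% in genes with none. Over the genes printed above, the ratio in the 300 bases was 0.76 in ZNF287, 0.69 in MAP9, 0.50 in ZNF253, 0.48 in GUCY1B1, 0.33 in CSTA and 0.08 in TDO2.

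**Figure D5:**
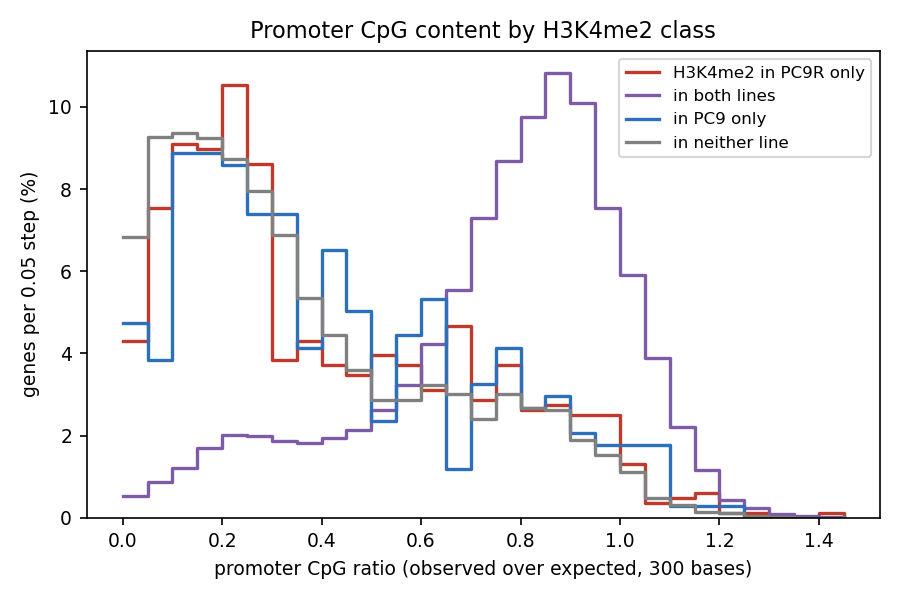
Distribution of the promoter CpG ratio (horizontal axis, observed over expected CpG in 300 bases) in 4 classes of promoter H3K4me2, as the percentage of the genes of a class per step of 0.05 (vertical axis). Genes with the mark in PC9R only (red) peak at low ratios, as do genes with it in PC9 only (blue) or in neither line (grey), with medians of 0.31, 0.35 and 0.29. Genes with it in both lines (purple) peak near their median of 0.81.

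Short motifs were searched on both strands of the same 300 bases, and a match is a description, not a site. The GC box GGGCGG was found in 35.7% of the PC9R-only promoters, against 52.1% of all coding promoters and 66.4% of those marked in both lines, and it contains CpG itself. The TATA box TATAAA was in 14.0%, against 10.9% and 6.19%. The AP-1 motif TGANTCA was in 9.22%, against 6.36% and 5.15%, and the TEAD motif GGAATG in 18.0%, against 12.8% and 11.5%. CCAAT was in 32.7%, against 35.8% and 35.5%. CACGTG, the E-box, was in 5.63%, against 8.33% and 9.44%, and TGACGTCA, the cyclic AMP response element, in 1.20%, against 2.29% and 2.93%. TTCCNGGAA, the STAT motif, was in 1.56%, against 1.17% each. Promoters with the mark in neither line had TATAAA in 19.9%, TGANTCA in 8.33% and GGAATG in 14.3%, so TATAAA was more frequent there than at the PC9R-only promoters. The 338 promoters with the mark in PC9 only had GGGCGG in 34.6%, TATAAA in 11.2%, TGANTCA in 8.58% and GGAATG in 20.7%. The AP-1 and TEAD motif shares were thus not particular to the PC9R-only promoters.

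The genes were spread over the genome with some local runs. Chromosome 20 had the highest share, 44 of 547 coding genes (8.04%), followed by chromosome 5 with 6.22% and chromosome 19 with 5.203%, and chromosomes 21 and Y had none. Neighbouring coding genes formed 94 runs that held 206 of the 835 genes, and 11 runs had 3 or more genes. Besides the runs on chromosome 4 and in the protocadherin cluster, runs held the serum amyloid genes SAA1 and SAA2 and the secretoglobin genes SCGB2A1, SCGB1D2 and SCGB2A2 on chromosome 11, and MFAP5, RIMKLB and A2ML1 on chromosome 12. A2ML1, a protease inhibitor of epidermis, had 29 and 57 counts in PC9R, against 1 and 0 in PC9. The longest run, 6 NOTCH2NL and NBPF10 records within 41 bp on chromosome 1, was set by 1 peak at shared starts. In all, 39 peaks served 70 genes, and genes that share a peak are not independent.

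Few genes of the enzymes and binding proteins of H3K4 methylation were called. Of 10 tested writers and core subunits 0 were called in edgeR with or without the batch term, in DESeq2 or in limma-voom, with 0 at an unadjusted p under 0.05 without the term and 2 higher with it. SMYD3, WDR5, RBBP5 and MEN1 among them were counted over 2 to 7 accessions. Of 6 tested erasers 0 were called in edgeR without the term (1 lower at an unadjusted p under 0.05, which DESeq2 called), and with it KDM1A and KDM1B fell. KDM1A, which removes H3K4me2, had 3.50 and 3.27 CPM in PC9R, against 17.5 and 13.7 CPM in PC9 (log2 fold change -2.20 with the batch term, edgeR adjusted p = 0.00123, 0.255 without it). It was counted over 2 accessions, and such genes hold few counts in these files. Of 6 tested readers ING5 was higher and ING1, counted over 5 accessions, lower with the term. None of these genes had a PC9R-only promoter peak. Leukocyte markers summed to 17.6 and 13.7 CPM in PC9R, against 8.75 and 8.68 CPM in PC9, and fibroblast markers to 65.5 and 14.6 CPM in PC9R, against 24.7 and 7.34 CPM in PC9. Endothelial markers summed to 46.8 and 20.2 CPM in PC9R, against 22.5 and 12.7 CPM in PC9, and neuroendocrine markers to 5.27 and 4.10 CPM in PC9R, against 1.29 and 1.20 CPM in PC9. All of these sums were higher in both PC9R libraries than in the PC9 library of the same batch. Each sum rested mostly on 1 gene. In the first PC9R library CD68 gave 17.1 CPM of the leukocyte sum and COL1A1 64.2 CPM of the fibroblast sum. There CDH5 gave 35.8 CPM of the endothelial sum and SYP 4.41 CPM of the neuroendocrine sum. The sums therefore do not show that a list rose as a whole. VIM and VWF were higher in PC9R in 1 batch and lower in the other. In these lists CD68, COL1A1, CDH5 and SYP rose with the term, PTPRC had 0 counts in PC9R and 2 in PC9, and DCN had 0 in every library. The PC9R-only promoters include KDR, TEK, COL1A2, CHGB and NCAM1 of these lists, with at most 17 counts in a library (NCAM1 over 5 accessions). Their part in the results was not tested.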

How the data were processed

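Per the labels, PC9R and PC9 each had 2 RNA-seq libraries, 1 DHS library and 1 H3K4me2 library (antibody from Abcam). The submitters' processing notes name MACS2, TopHat, HTSeq, DESeq and hg19, with no version or role. As deposited, the RNA files give integer counts for 42811 RefSeq accessions, and the deposited peak lists, 1 per library, hold a score per peak on an unstated scale. The score was used only to rank or filter peaks within a list.

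Counts were summed per gene (41556 accessions matched through RefSeq gene names, used for names only, and the rest kept as rows of their own, at 0.668% to 0.824% of counts). Genes with more than 1 accession held 6.74% to 7.07% of the counts of a library. TSS are the 5' ends of the coding gene records of GENCODE 44 lifted to GRCh37, and sequences come from GRCh37. Tests used edgeR 4.0.16 in R 4.3.3, two-sided (TMM, filterByExpr, quasi-likelihood F test, Benjamini-Hochberg adjustment over all 12660 tested rows) on the 4 RNA libraries with no block. A standard error (SE) is the log2 fold change over the square root of F. The fit with library number as a batch term is an alternative. Fold changes within batches add 0.5 counts. Ratios compare counts scaled by library, with 95% exact intervals, and for a gene at 0 in one line the bound sets 3 counts over its libraries. Intervals and bounds cover counting error only. Scripts were tested on simulated data.

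The genes and the gene lists were chosen with earlier results of these data known. Genes were named by a rule: all genes called without the batch term, up to 15 higher and 6 lower with it, those with the highest-scored or widest peaks or strongest DHS, those nearest the limits, the most expressed uncalled ones and up to 3 per gene list; further names are said to be examples of a group. Alternatives were other windows and peak subsets, RLE and upper quartile scaling, other filters, leaving out each library, DESeq2 1.42.0 and limma-voom (limma 3.58.1). Some genes that the rule selects are not reported here.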

Additional observations from a re-analysis of the deposited data

How the results depend on the processing

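The number of PC9R-only promoter genes was between 698 and 1036 with windows of 500 bp or 2 kb, a PC9 limit of 5 kb or every coding transcript TSS. It was 377 when only PC9R peaks scored above the list's median were used, and that subset had a promoter DHS peak in 32.9% of genes in PC9R and 5.04% in PC9, 94 genes with both PC9R libraries above both PC9 libraries and 19 below. The PC9R DHS share was 19.5% within 500 bp, 30.2% within 2 kb and 9.22% with equal numbers of DHS peaks. The count of genes called higher (8 in edgeR without a batch term) was 50 with no filter, 23 with a stricter filter, 38 with DESeq2, 15 with limma-voom and 13 to 37 when a library was left out (22 without the first and 37 without the second PC9R library, 13 without the first and 18 without the second PC9 library). Among all tested rows, 312 of 17834 were called higher with no filter and 88 of 10554 with the stricter filter. DESeq2 called 261 of 12660 higher and limma-voom 54, against 24 in edgeR without a batch term. The calls over all rows thus rose in these settings too, and the larger counts are not particular to the PC9R-only genes. The replicate block, which is the batch term, gave 63 higher and 11 lower. In that fit 6 were lower among peaks above the median score and 5 by every coding TSS, both added after the data were seen. The count called lower (1) was 2 with no filter and 1 whenever a library was left out. With upper quartile scaling 0 were called higher and 0 lower in edgeR, where the smallest adjusted p over all rows was 0.0536 and 49 and 5 genes had an unadjusted p under 0.05. All 9 genes called without a batch term lost the call under that scaling, and MSN also without the first PC9 library. The cause was not tested.

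The library number does not pair the samples by the labels. Differences between second and first libraries correlated at 0.76 between the lines across tested rows, which are not independent, and edgeR's biological coefficient of variation was 0.498 without and 0.180 with the block. Of the named genes not called without the block 15 changed sign in some setting. IL17RB was at 0.047 with upper quartile scaling, 0.0062 with a stricter filter, 0.12 with the replicate block and 0.15 with limma-voom, and IL1R2 at -0.15 with the replicate block and -0.49 with limma-voom. When each library was left out the log2 fold change ranged over -0.30 to 0.35 for CDH26, -0.53 to 0.67 for IL17RB, -2.48 to 1.45 for IL1R2, -1.65 to 0.85 for KCNK3, -0.34 to 3.74 for MYO1F, -0.0018 to 1.65 for PLA2G4D, -0.34 to 0.87 for PRSS23, -1.39 to 0.022 for SLC39A10, -1.58 to 2.07 for SLC7A4, -1.47 to 4.39 for SPRR1B, -1.16 to 0.77 for SUB1, -0.28 to 2.63 for TNFRSF25, -1.30 to 0.80 for VBP1, -0.62 to 1.29 for ZBTB45 and -0.53 to 0.29 for ZFP64. Depth limits low genes most, since 3 counts in a line is the smallest bound used.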
